A study of Homo sapiens with 6 samples.

Results

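The levels of 36 genes of the ATF4 and amino acid network were followed in Ishikawa cells after knockdown of TCF19: the stress transcription factor ATF4 and its relatives, serine and folate enzymes, other amino acid enzymes and amino acid transporters. The genes were taken by symbol from a fixed list of names, which was chosen with earlier results of these data known. All 36 were found among the 58735 genes of the deposited table. Ishikawa is a human endometrial cancer cell line. It was lipofected with an siRNA against TCF19 (siTCF19, 3 libraries) or with a negative control siRNA (siNC, 3 libraries), kept in DMEM with serum, and its RNA was taken 48 hours later. Both groups had the same transfection reagent and medium, and the labels name neither the siRNA sequences nor separate cultures behind the libraries, so the p-values rest on the spread among these libraries, which could be technical.

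ATF4 is a transcription factor whose mRNA is always present but is translated mainly when the initiation factor eIF2 is phosphorylated, as happens when amino acids run short or the endoplasmic reticulum is stressed. It pairs with C/EBP proteins on a composite DNA element, the C/EBP-ATF response element, and switches on genes that import amino acids, make asparagine, serine and proline, and run the folate cycle that carries single carbon units from serine into nucleotides. Growth signals through mTORC1 and MYC also act on many of these genes, and tumours of many tissues depend on them.

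The 6 libraries held 14680022 to 16244705 counts. TCF19, the targeted gene, had 675, 529 and 606 counts in siTCF19 and 2572, 2905 and 2756 in siNC. Epithelial markers were abundant: EPCAM, in FPKM (the authors' values, scaled to library size and gene length), lay between 190 and 201 FPKM in siTCF19 and between 197 and 201 FPKM in siNC, and PAX8, a factor of Müllerian epithelium, lay above 108 FPKM in every library. The other epithelial markers were also well expressed but changed in both directions: CDH1 (log2 fold change 0.61) and KRT19 (0.44) rose, and KRT8 (-0.40) and KRT18 (-0.43) fell. The hormone receptor genes ESR1 and PGR had at most 4 counts in any library, so these cells carried epithelial transcripts with hardly any of the hormone receptors. Of 9 fibroblast, endothelial and leukocyte markers, 8 had at most 19 counts in any library, DCN at 0. COL1A1 had 2.50 to 2.97 FPKM in siTCF19 and 1.70 to 1.91 FPKM in siNC, and CDH5 0.03 to 0.05 FPKM in siTCF19 and 0.13 to 0.20 FPKM in siNC, whose part in the results was not tested.

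The C/EBP-ATF element was looked for in RefSeq promoter windows (build GRCh38.p14, 250 bases before to 50 after each annotated start), which were present for 30 of the 36 genes. PSPH, SHMT2, ALDH1L2, PYCR1, SLC7A11 and NUPR1 had no window. The letters searched were TGATGNAA on either strand. They occurred in the windows of 9 of 30 members, against 4.46% of 27305 gene symbols and 3.62% of 35116 windows. The matches are shown because they are the sequence that this set of genes is known for. Each is written in the direction of its gene, with the matched letters in capitals and up to 10 bases on either side, from the largest fall to the largest rise in siTCF19.

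ASNS, chr7:97872459-97872486, minus strand: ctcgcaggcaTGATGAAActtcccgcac

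SLC1A5, chr19:46784894-46784921, minus strand: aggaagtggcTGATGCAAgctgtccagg

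GOT1, chr10:99430805-99430832, minus strand: attgcattggTTGCATCAttctcggcag

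SLC7A1, chr13:29595664-29595691, minus strand: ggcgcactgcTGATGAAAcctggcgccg

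CHAC1, chr15:40953252-40953279, plus strand: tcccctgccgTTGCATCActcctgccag

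MTHFD1L, chr6:150866347-150866374, plus strand: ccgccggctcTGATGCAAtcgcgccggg

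CEBPG, chr19:33374061-33374088, plus strand: gcgcggcgtcTGATGCAAcctgccggca

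SLC1A4, chr2:64989382-64989409, plus strand: cggctcccgtTTGCATCAtctccagccg

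SLC3A2, chr11:62881726-62881748, plus strand: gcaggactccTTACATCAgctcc

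Of these 9 genes, 6 fell, 1 rose and 2 were not called in the test described next. Of the 21 members whose window lacked the letters, 13 fell and 4 rose. Sequence outside the windows was not searched, so these 21 may carry the letters elsewhere. Over all tested genes, 20.7% were called higher and 20.8% lower, and these counts are to be read against those shares. The median log2 fold change was -0.43 in the 9 genes and -0.38 in the 21 genes, and it was 0.00 over all 293 tested genes with the letters in a window. The version with C in the open position, TGATGCAA, was present for 6 members (MTHFD1L, SLC1A5, SLC1A4, CHAC1, CEBPG and GOT1), and no member had the cyclic AMP element TGACGTCA. The E-box CACGTG, the letters that MYC and its partner MAX read, was present for 6 of 30 members against 8.77% of gene symbols, and of these ATF4, MTHFD1, MTHFD1L, ALDH18A1 and SLC1A5 fell while SLC7A5 rose.

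Across the whole list, transcripts of the network were mostly lower after TCF19 knockdown. Falls were called in 25 of the 36 genes and rises in 5, and 6 were not called. ATF4 itself, 2 of 3 serine synthesis enzymes, 6 of 7 folate enzymes, mitochondrial and cytosolic, and 5 of 8 transporters were among the falls. The rises were VLDLR, SLC7A5, SLC3A2, ATF5 and DDIT3. Calls are adjusted p-values under 0.05 in edgeR's quasi-likelihood test over 17299 tested genes, all 36 members among them, and levels are counts scaled to the TMM-adjusted library size (CPM) or, between genes, FPKM. Many genes differed between siTCF19 and siNC: 41.5% of tested genes were called, 20.7% higher and 20.8% lower, so a count of rises and falls is to be read against those shares. The labels name no rescue and no separate siRNAs against TCF19, so effects of TCF19 loss and off-target effects of the siRNA cannot be told apart. With library-size-only scaling, 4512 genes were higher and 2842 lower, against 3586 and 3597 with TMM scaling, and 7 members rose and 25 fell.

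The median log2 fold change of the 36 members was -0.42, beside 0.00 for all tested genes. Changes of at least 2-fold were found in 4 members, DDIT4, ALDH1L1 and CTH among the falls and VLDLR as a rise, against 4.85% of all tested genes. In 33 members the 3 siTCF19 libraries lay entirely above or below the 3 siNC libraries, against 49.2% of all tested genes. These included CEBPG, PSAT1 and SLC1A4, whose groups were apart by margins too small to be called. In bulk RNA a lower level in every cell and fewer expressing cells cannot be told apart.

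**Figure D1:**
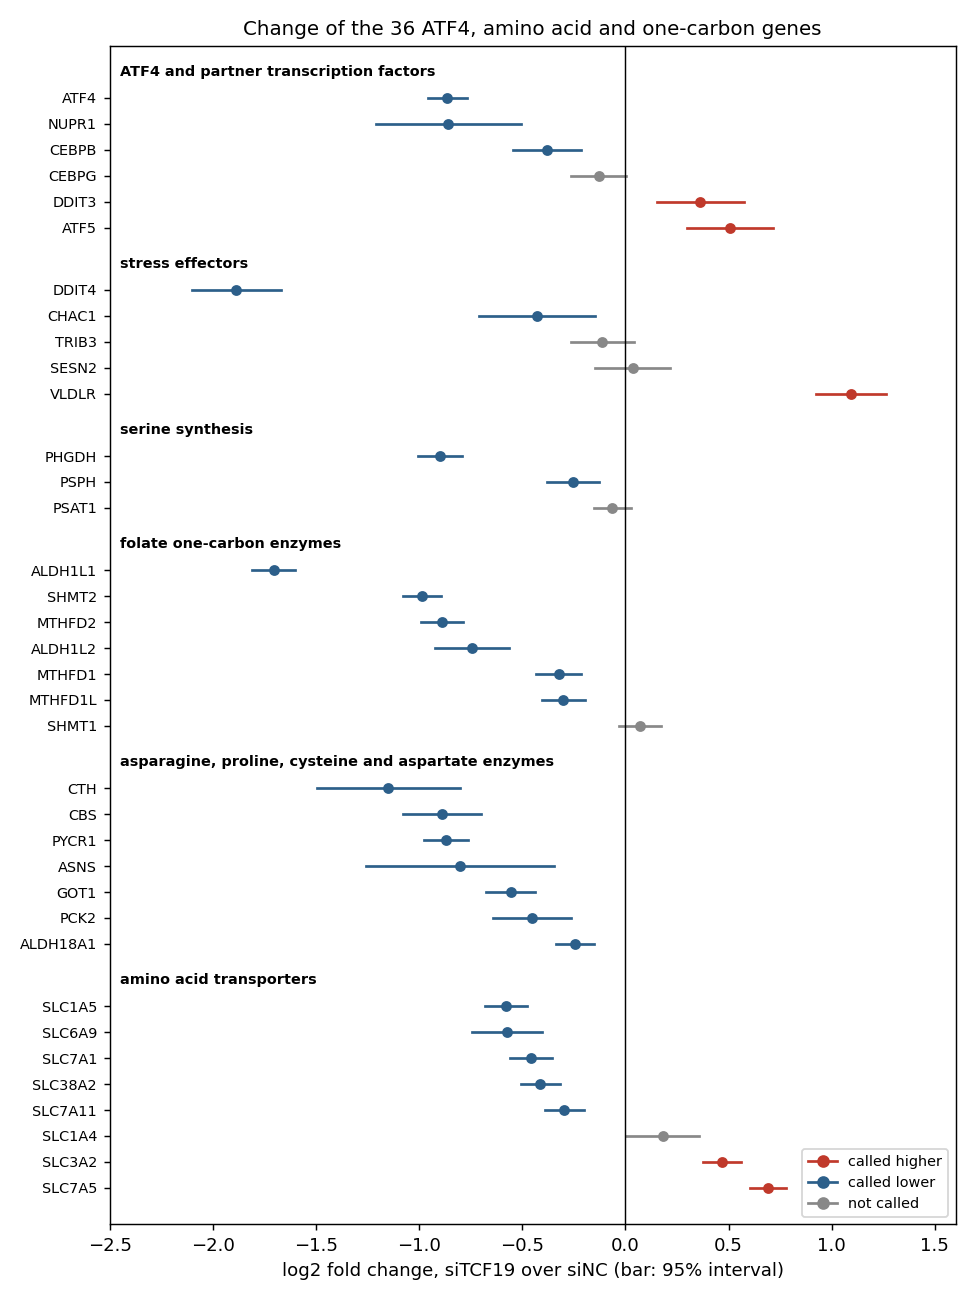
Log2 fold change (siTCF19 over siNC, horizontal axis) of each of the 36 genes, grouped by role, with 95% intervals from the edgeR standard error; red genes were called higher, blue lower and grey not called. The falls run to -1.89 for DDIT4 and the rises to 1.09 for VLDLR, and 25 genes lie in blue.

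The members took 0.497% to 0.501% of all counts in siTCF19 and 0.540% to 0.551% in siNC. SLC7A5 alone supplied 26.8% to 27.4% of the members' counts in siTCF19 and 14.4% to 15.4% in siNC. Without SLC7A5 the other 35 genes took 0.360% to 0.367% of all counts in siTCF19 and 0.462% to 0.466% in siNC, so the groups did not overlap with or without it.

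ATF4 (ENSG00000128272, hg38 chromosome 22, 39519695 to 39522685, plus strand) had 178, 161 and 174 CPM in siTCF19, against 308, 311 and 315 CPM in siNC. Every siTCF19 library was far below every siNC library. ATF4 fell 1.82-fold (95% interval 1.70 to 1.94, edgeR adjusted p = 9.34e-19). This is the level of its mRNA, and the amount of ATF4 protein, which is set largely at translation, was not measured. Per gene length, ATF4 averaged 67.5 ± 3.91 FPKM in siTCF19 and 123 ± 0.97 FPKM in siNC (SD, n = 3 each).

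The genes that encode partners and relatives of ATF4 did not move together. Among 6 transcription factor genes, a group that includes ATF4 itself, there were 3 falls, ATF4 being 1 of them, and 2 rises, with 1 not called. CEBPB, a C/EBP family dimer partner of ATF4, had 25.9, 24.9 and 24.3 CPM in siTCF19, against 34.8, 31.9 and 31.2 CPM in siNC. It fell by 0.38 on the log2 scale (edgeR adjusted p = 0.000174). CEBPG, the other C/EBP partner in the list, averaged 47.5 ± 1.98 CPM in siTCF19 and 52.0 ± 1.41 CPM in siNC (SD, n = 3 each), with a log2 fold change of -0.13 (95% interval -0.26 to 0.00, edgeR adjusted p = 0.113). NUPR1, a small stress-induced chromatin protein, was scarce at 4.49, 3.34 and 3.61 CPM in siTCF19, against 6.80, 5.98 and 8.02 CPM in siNC, and fell 1.81-fold (95% interval 1.42 to 2.31, edgeR adjusted p = 8.45e-05).

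ATF5 and DDIT3, whose mRNAs are translated under eIF2 phosphorylation as ATF4 is, went the other way. ATF5 had 22.1, 19.2 and 19.4 CPM in siTCF19, against 13.9, 15.9 and 12.9 CPM in siNC, a log2 fold change of 0.51 ± 0.10 (SE, edgeR adjusted p = 9.81e-05). DDIT3, which encodes the pro-apoptotic factor CHOP, had 18.4, 16.9 and 18.4 CPM in siTCF19, against 13.6, 15.0 and 13.1 CPM in siNC, a log2 fold change of 0.36 ± 0.10 (SE, edgeR adjusted p = 0.00396). In both genes each siTCF19 library was above each siNC library. Both overlap a more abundant gene on the opposite strand: 21.2% of the exon bases of ATF5 lie in exons of NUP62 and 27.2% of those of DDIT3 lie in exons of MARS. No source used here gives the strand setting of the counting, so reads of the overlapping genes may not have been told apart. DDIT3 also shares 4.44% of its exon bases with MBD6, on the opposite strand. Gene models of another gene with at least 10% of the member's counts overlap further members: ALDH1L2 shares 1.70% of its exon bases with the more abundant C12orf45, SLC6A9 7.83% with CCDC24, SHMT1 2.69% with SMCR8 and MTHFD1 1.90% with ZBTB25, all on the opposite strand, and ASNS 44.6% with AC079781.5 on its own strand. NUP62 and MARS, looked up after the values were seen, had log2 fold changes of -0.23 and -0.61. The other overlapping genes, MBD6 among them, were not looked up. How far reads of overlapping genes enter the values of ATF5 and DDIT3 was not tested.

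The stress effectors that ATF4 and DDIT3 are known to induce were split. DDIT4, an inhibitor of mTORC1 that hypoxia and glucocorticoids also induce, had 6.52, 7.55 and 7.87 CPM in siTCF19, against 27.4, 26.9 and 26.8 CPM in siNC. It showed the largest fold change of the 36 genes, a fall of 3.69-fold (95% interval 3.18 to 4.29, edgeR adjusted p = 2.34e-18). CHAC1, an enzyme that degrades glutathione, had 6.96, 6.28 and 6.71 CPM in siTCF19, against 9.69, 8.47 and 8.73 CPM in siNC. It fell by 0.43 on the log2 scale (edgeR adjusted p = 0.0116), which DESeq2 did not call (adjusted p = 0.0667), nor edgeR without siNC replicate 1 (adjusted p = 0.0587).

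TRIB3, a pseudokinase that restrains ATF4 signalling, averaged 34.1 ± 1.13 CPM in siTCF19 and 36.9 ± 2.55 CPM in siNC (SD, n = 3 each), and its groups overlapped. The log2 fold change of TRIB3 was -0.11 (95% interval -0.27 to 0.04, edgeR adjusted p = 0.243). SESN2, the leucine-binding sestrin, averaged 25.8 ± 1.85 CPM in siTCF19 and 25.2 ± 2.75 CPM in siNC (SD, n = 3 each), with a 95% interval of -0.15 to 0.22 for its log2 fold change. The very-low-density lipoprotein receptor gene VLDLR had 37.8, 39.9 and 41.8 CPM in siTCF19, against 20.5, 17.2 and 18.3 CPM in siNC. VLDLR thus rose 2.14-fold (95% interval 1.90 to 2.40, edgeR adjusted p = 3.17e-14), the largest rise among the members.

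**Figure D2:**
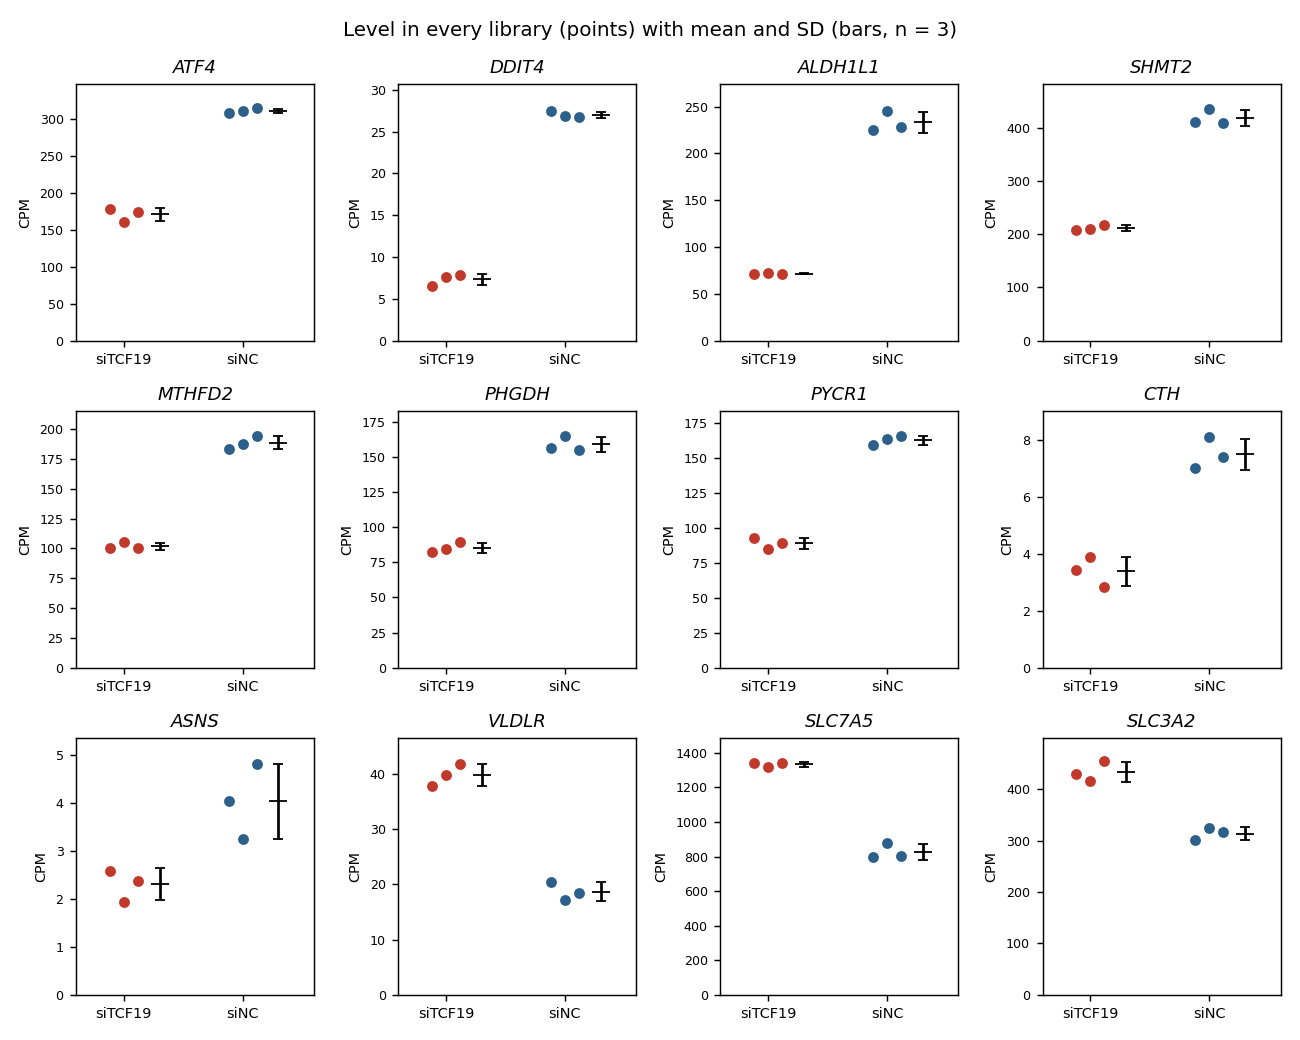
CPM (vertical axis, from 0) of 12 members in each siTCF19 library (red) and each siNC library (blue), with black bars for the mean and SD of 3 libraries. The groups are apart in all 12 panels, with siTCF19 below siNC in 9 and above it in VLDLR, SLC7A5 and SLC3A2.

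Serine synthesis runs from the glycolytic intermediate phosphoglycerate through PHGDH, PSAT1 and PSPH in that order. Of these 3 enzyme genes, 2 fell and PSAT1 was not called. PHGDH, the first enzyme of the route (ENSG00000092621, hg38 chromosome 1, 119648411 to 119744226, plus strand), had 82.1, 84.2 and 89.4 CPM in siTCF19, against 157, 165 and 155 CPM in siNC. It fell 1.87-fold (95% interval 1.73 to 2.01, edgeR adjusted p = 6.52e-18). The transaminase gene PSAT1 had 259, 263 and 260 CPM in siTCF19, against 278, 272 and 267 CPM in siNC. Its groups did not overlap, but the log2 fold change was -0.06 (95% interval -0.15 to 0.03, edgeR adjusted p = 0.271). PSPH, the phosphatase that completes the route, had 64.3, 64.1 and 60.2 CPM in siTCF19, against 82.1, 72.6 and 70.4 CPM in siNC, and fell by 0.26 on the log2 scale (edgeR adjusted p = 0.000944). The pseudogene PSPHP1 carried 93, 101 and 134 counts in siTCF19 and 95, 106 and 109 in siNC, and 10.1% as many counts as PSPH over all libraries, so reads may be shared between the copies.

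Folate enzymes move the carbon of serine: SHMT2, MTHFD2, MTHFD1L and ALDH1L2 act in mitochondria, and SHMT1, MTHFD1 and ALDH1L1 act mainly in the cytosol. In this group 6 of 7 genes fell, none rose and SHMT1 was not called, with a median log2 fold change of -0.74. SHMT2, which splits serine into glycine and a carbon unit in mitochondria (ENSG00000182199, hg38 chromosome 12, 57229327 to 57234935, plus strand), had 208, 209 and 218 CPM in siTCF19, against 411, 436 and 408 CPM in siNC. It fell 1.98-fold (95% interval 1.86 to 2.11, edgeR adjusted p = 3.10e-21). MTHFD2, the mitochondrial dehydrogenase and cyclohydrolase that follows it, averaged 102 ± 2.94 CPM in siTCF19 and 189 ± 5.59 CPM in siNC (SD, n = 3 each), and fell 1.85-fold (95% interval 1.73 to 1.99, edgeR adjusted p = 2.12e-18).

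MTHFD1L, which releases formate from mitochondria, changed less: it had 107, 103 and 105 CPM in siTCF19, against 127, 131 and 131 CPM in siNC, a log2 fold change of -0.30 ± 0.05 (SE, edgeR adjusted p = 5.27e-06). Its cytosolic relative MTHFD1, a trifunctional enzyme, had 94.5, 107 and 95.2 CPM in siTCF19, against 123, 128 and 120 CPM in siNC, a log2 fold change of -0.32 ± 0.06 (SE, edgeR adjusted p = 5.24e-06). The paired enzymes thus had nearly the same change.

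The formyl-tetrahydrofolate dehydrogenases oxidise the carbon unit to carbon dioxide. ALDH1L1, the cytosolic form (ENSG00000144908, hg38 chromosome 3, 126103562 to 126197994, minus strand), had 71.3, 71.9 and 71.2 CPM in siTCF19, against 225, 245 and 228 CPM in siNC. ALDH1L1 fell 3.26-fold (95% interval 3.03 to 3.51) and had the lowest adjusted p of the 36 genes (edgeR, 2.23e-27). Its mitochondrial relative ALDH1L2 had 19.3, 19.8 and 17.6 CPM in siTCF19, against 30.7, 34.4 and 29.8 CPM in siNC, and fell 1.68-fold (95% interval 1.48 to 1.90, edgeR adjusted p = 3.28e-09). Both genes were lower in every siTCF19 library than in any siNC library. SHMT1, the cytosolic partner of SHMT2, had 138, 143 and 149 CPM in siTCF19, against 137, 138 and 134 CPM in siNC. The groups of SHMT1 overlapped, with a log2 fold change of 0.07 (edgeR adjusted p = 0.271) that was called higher with library-size-only scaling (0.13, edgeR adjusted p = 0.0289).

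Ratios of FPKM within a library compare related genes per length, and 4 such ratios, chosen after the values were seen, were tested with a two-sided exact permutation test that cannot go below p = 0.1 with 3 libraries against 3. SHMT2 over SHMT1 was 2.27, 2.20 and 2.20 in siTCF19, against 4.51, 4.75 and 4.59 in siNC (exact permutation p = 0.1, adjusted over the 4 ratios 0.133). The ratio of SHMT2 to SHMT1 was thus lower in every siTCF19 library than in any siNC library. ALDH1L2 over ALDH1L1 was 0.436, 0.443 and 0.399 in siTCF19, against 0.220, 0.226 and 0.210 in siNC (exact permutation p = 0.1, adjusted 0.133), so it was higher in every siTCF19 library. MTHFD1L over MTHFD1 was 2.12, 1.80 and 2.07 in siTCF19, against 1.93, 1.91 and 2.03 in siNC, with overlapping groups (exact permutation p = 0.8, adjusted 0.8). The 3 ratios of mitochondrial over cytosolic forms thus had no common direction in these libraries.

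**Figure D3:**
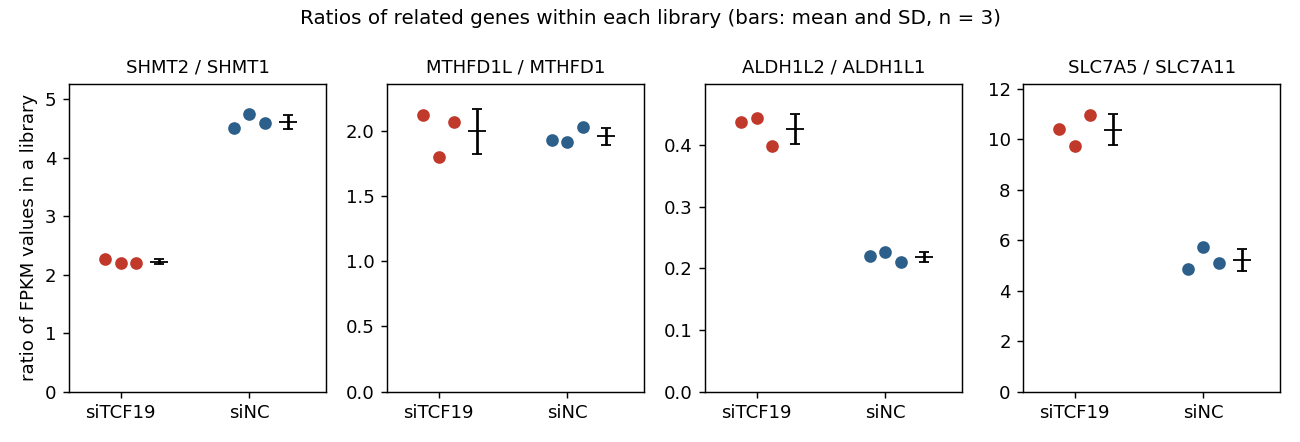
Ratio of the FPKM values of related genes within each library (vertical axis, from 0) in siTCF19 (red) and siNC (blue), with the mean and SD of 3 libraries in black. SHMT2 over SHMT1 averaged 2.22 in siTCF19 and 4.62 in siNC, while MTHFD1L over MTHFD1 overlapped between the groups.

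All 7 enzyme genes of asparagine, proline, cysteine, aspartate and phosphoenolpyruvate metabolism fell, with a median log2 fold change of -0.80. ASNS, asparagine synthetase, is a textbook target of ATF4 (ENSG00000070669, hg38 chromosome 7, 97852118 to 97872542, minus strand). It had the lowest level per length of the 36 genes, with 0.51 ± 0.08 FPKM in siTCF19 and 0.90 ± 0.17 FPKM in siNC (SD, n = 3 each). The counts of ASNS were 41, 29 and 37 in siTCF19, against 59, 51 and 75 in siNC, all above the floor of 3 counts but few enough to leave a wide interval. ASNS fell 1.75-fold (95% interval 1.27 to 2.39, edgeR adjusted p = 0.00354). Its pseudogene ASNSP1 had 29, 20 and 15 counts in siTCF19, against 42, 70 and 65 in siNC, the overlapping AC079781.5 had 18.2% as many counts as ASNS over all libraries, and the 4 pseudogenes named after ASNS together had 84.6% as many counts as ASNS, so how reads were shared among the copies bears on this value and was not tested.

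Proline is made from glutamate by ALDH18A1 and then PYCR1. PYCR1, the mitochondrial reductase, had 93.0, 84.9 and 89.4 CPM in siTCF19, against 159, 163 and 166 CPM in siNC, and fell 1.83-fold (95% interval 1.70 to 1.97, edgeR adjusted p = 1.15e-17). ALDH18A1, the synthase upstream of it, changed less: it averaged 298 ± 4.27 CPM in siTCF19 and 353 ± 13.1 CPM in siNC (SD, n = 3 each), a log2 fold change of -0.24 ± 0.04 (SE, edgeR adjusted p = 1.83e-05).

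Transsulfuration turns homocysteine into cysteine through CBS and then CTH, and both genes fell. CTH, cystathionine gamma-lyase, had 3.42, 3.87 and 2.84 CPM in siTCF19, against 7.01, 8.08 and 7.38 CPM in siNC, a fall of 2.22-fold (95% interval 1.75 to 2.82, edgeR adjusted p = 4.60e-07). CBS, cystathionine beta-synthase, had 31.4, 31.3 and 23.0 CPM in siTCF19, against 45.8, 61.9 and 50.9 CPM in siNC, a fall of 1.85-fold (95% interval 1.63 to 2.11, edgeR adjusted p = 1.37e-10). The reference genome carries a near-identical copy, CBSL, which had 14, 33 and 18 counts in siTCF19 and 58, 97 and 58 in siNC, so the value of CBS is uncertain.

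The cytosolic aspartate aminotransferase gene GOT1 had 61.0, 63.5 and 69.1 CPM in siTCF19, against 90.0, 96.5 and 97.9 CPM in siNC, with no overlap. PCK2, the mitochondrial enzyme that makes phosphoenolpyruvate from oxaloacetate, averaged 19.4 ± 2.12 CPM in siTCF19 and 26.6 ± 2.10 CPM in siNC (SD, n = 3 each). GOT1 fell by 0.56 and PCK2 by 0.45 on the log2 scale (edgeR adjusted p = 2.75e-10 for GOT1 and 0.000118 for PCK2).

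Among the 8 amino acid transporter genes, 5 fell, 2 rose and 1 was not called. The rises were the pair that forms the large neutral amino acid exchanger, which brings leucine and other essential amino acids into cells: SLC7A5, its transporting light chain, and SLC3A2, the glycoprotein heavy chain. SLC7A5 (ENSG00000103257, hg38 chromosome 16, 87830023 to 87869488, minus strand) was the most abundant member per length, at 278 ± 4.21 FPKM in siTCF19 and 172 ± 9.98 FPKM in siNC (SD, n = 3 each). Its levels were 1342, 1316 and 1340 CPM in siTCF19, against 795, 879 and 803 CPM in siNC. SLC7A5 rose 1.61-fold (95% interval 1.52 to 1.71, edgeR adjusted p = 2.27e-17). SLC3A2 had 430, 416 and 455 CPM in siTCF19, against 301, 324 and 316 CPM in siNC, and rose 1.38-fold (95% interval 1.30 to 1.47, edgeR adjusted p = 2.82e-11).

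SLC7A11, the cystine and glutamate exchanger that pairs with the same heavy chain, moved the other way. It had 263, 275 and 248 CPM in siTCF19, against 332, 313 and 320 CPM in siNC, and fell by 0.30 on the log2 scale (edgeR adjusted p = 1.34e-06). The FPKM ratio of SLC7A5 over SLC7A11 averaged 10.4 ± 0.62 in siTCF19 and 5.23 ± 0.44 in siNC (SD, n = 3 each; exact permutation p = 0.1, the smallest possible, adjusted over the 4 ratios 0.133). The leucine exchanger's light chain thus exceeded that of the cystine exchanger by more in every siTCF19 library than in any siNC library.

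SLC1A5 and SLC38A2, both able to carry glutamine, fell. SLC1A5, a sodium-dependent exchanger of glutamine and other neutral amino acids, had 115, 118 and 115 CPM in siTCF19, against 164, 182 and 174 CPM in siNC, a log2 fold change of -0.58 ± 0.05 (SE, edgeR adjusted p = 1.42e-12). SLC38A2, a sodium-coupled importer induced by amino acid shortage, had 485, 521 and 446 CPM in siTCF19, against 663, 621 and 648 CPM in siNC, and fell 1.33-fold (95% interval 1.25 to 1.42, edgeR adjusted p = 1.30e-09). In both genes all siTCF19 libraries were below all siNC libraries.

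The cationic amino acid carrier gene SLC7A1 averaged 162 ± 8.92 CPM in siTCF19 and 223 ± 9.97 CPM in siNC (SD, n = 3 each), a log2 fold change of -0.46. The glycine transporter gene SLC6A9 averaged 22.2 ± 0.34 CPM in siTCF19 and 33.1 ± 2.66 CPM in siNC (SD, n = 3 each), a log2 fold change of -0.57 (edgeR adjusted p = 3.31e-07, and 4.77e-10 for SLC7A1). SLC1A4, which carries serine, alanine and cysteine, had 23.8, 24.6 and 25.0 CPM in siTCF19, against 21.4, 22.4 and 20.9 CPM in siNC. Its groups were apart, but the log2 fold change of 0.18 was not called (edgeR adjusted p = 0.097) except with library-size-only scaling (0.24, edgeR adjusted p = 0.0238).

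**Figure D4:**
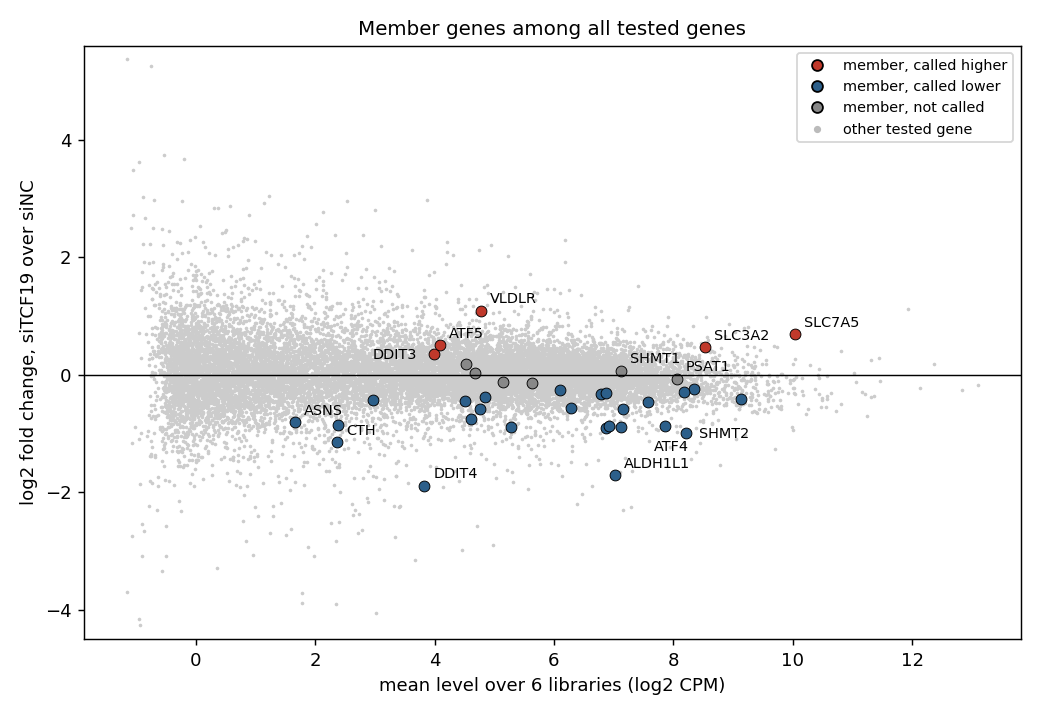
Log2 fold change (siTCF19 over siNC, vertical axis) against mean level over 6 libraries (log2 CPM, horizontal axis) for all 17299 tested genes in grey and the 36 members as outlined points, red for called higher, blue for called lower and grey for not called. Members span low levels (ASNS) to high levels (SLC7A5), and 25 blue points lie below 0.

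Genes next to the members in the same pathways were read from 7 further lists, whose calls are to be set against the 20.7% higher and 20.8% lower of all tested genes. The lists, like the members, were chosen with earlier results of these data known. Values in parentheses are log2 fold changes of called genes. In the list of eIF2 kinases and their regulators, eIF2 and eIF2B subunits and eIF2 phosphatase genes, 3 of 16 rose, 5 fell and 8 were not called. EIF2AK3, the endoplasmic reticulum stress kinase PERK that acts upstream of ATF4, rose by 0.70 on the log2 scale, and EIF2AK1, the heme-regulated kinase, by 0.13. PPP1R15A, the stress-induced subunit that directs eIF2 dephosphorylation, rose (0.56), while PPP1R15B, the constitutive one, fell (-0.50). The eIF2 subunit genes EIF2S3 (-0.39) and EIF2S2 (-0.34) fell as well.

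Of 12 other genes described as ATF4 targets, 11 were tested, and 6 fell, 3 rose and 2 were not called, with a median log2 fold change of -0.18. INHBE, an inhibin beta chain gene, averaged 3.35 ± 0.12 CPM in siTCF19 and 11.3 ± 0.60 CPM in siNC (SD, n = 3 each), a log2 fold change of -1.75 (edgeR adjusted p = 8.75e-13). The secreted glycoprotein gene STC2 (-0.88) and the mitochondrial alanine aminotransferase gene GPT2 (-0.67) also fell, whereas the stress factor gene ATF3 (0.86), the reticulum autophagy gene CCPG1 (0.45) and HERPUD1 (0.17), of reticulum-associated degradation, rose.

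In the folate cycle list, falls were called in 7 of 17 tested genes and rises in 5. The purine synthesis enzyme gene GART (-0.51), thymidylate synthase TYMS (-0.55) and the reduced folate carrier SLC19A1 (-0.42) fell. GGH (0.28), which trims folate polyglutamates, and MTHFD2L (0.56) rose. MTHFD2L, the close relative of MTHFD2 in mitochondria, averaged 25.5 ± 0.90 CPM in siTCF19 and 17.4 ± 1.76 CPM in siNC (SD, n = 3 each), so it moved against MTHFD2. Of 14 tested genes of the methionine cycle, methionine salvage and glutathione, 5 fell and 2 rose, with 7 not called: AHCY (-0.53), which hydrolyses adenosylhomocysteine, MAT2A (-0.36), which makes adenosylmethionine, and the salvage isomerase MRI1 (-0.44) fell, and GCLM (0.51), a subunit of the enzyme that starts glutathione synthesis, and AHCYL2 (0.36) rose.

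Other enzymes of amino acid metabolism fell in 8 of 15 tested cases, with 1 rise and 6 not called. The argininosuccinate lyase gene ASL (-0.70), glutamine synthetase GLUL (-0.36) and glutamate dehydrogenase GLUD1 (-0.29) fell, and the branched-chain aminotransferase BCAT1 rose (0.25). Of 20 other tested amino acid transporter genes, 5 fell, 6 rose and 9 were not called. SLC6A6, the taurine carrier, averaged 299 ± 7.46 CPM in siTCF19 and 534 ± 11.3 CPM in siNC (SD, n = 3 each) and fell by 0.84 on the log2 scale (edgeR adjusted p = 1.31e-19). The glutamate transporter gene SLC1A3 (-0.64) and SLC43A1 (-1.24), a facilitated carrier of large neutral amino acids, fell, while SLC38A10 (0.57), the mitochondrial aspartate and glutamate carrier SLC25A13 (0.35) and the lysosomal transporter SLC36A4 (0.29) rose.

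Amino acid sensing genes upstream of mTORC1 had more rises than falls: of 22 tested, 10 rose, 5 fell and 7 were not called, with a median log2 fold change of 0.13. RRAGB (0.73), a Rag GTPase, SESN3 (0.57), a sestrin, and FLCN (0.46), folliculin, rose. WDR59 (-0.62), NPRL3 (-0.27) and the Ragulator subunit LAMTOR5 (-0.35) fell.

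**Figure D5:**
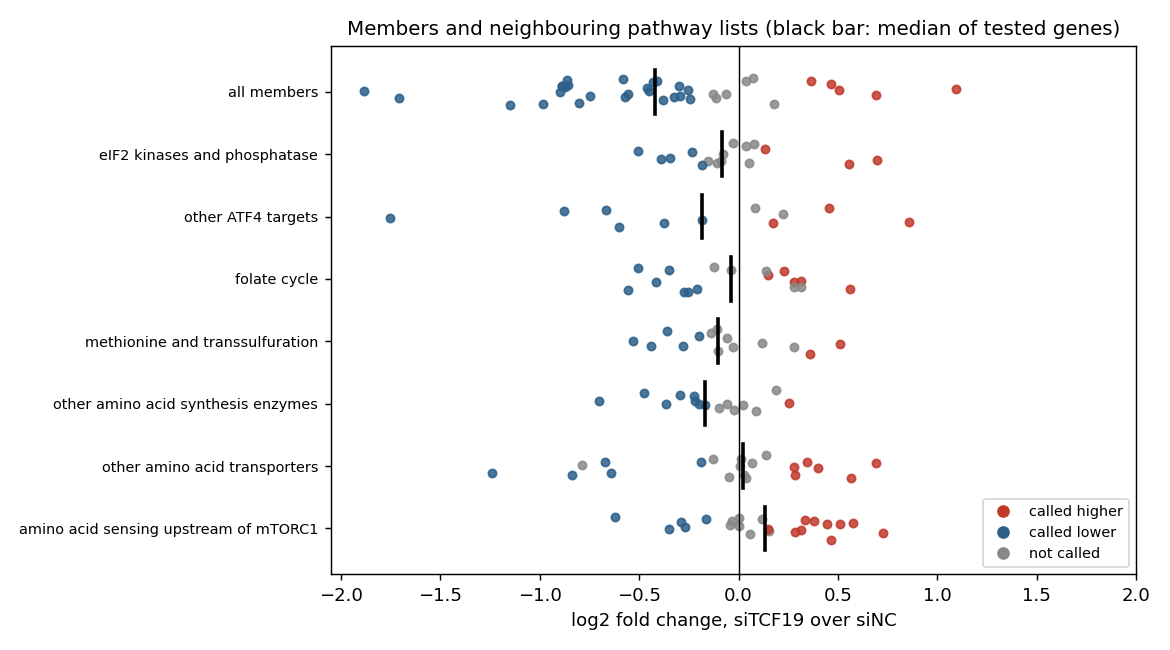
Log2 fold change (siTCF19 over siNC, horizontal axis) of every tested gene in the member list and in 7 lists of neighbouring pathways, red for called higher, blue for called lower and grey for not called, with the median as a black bar. The member median is -0.42, and the medians of the other lists run from -0.18 for other ATF4 targets to 0.13 for amino acid sensing.

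In these libraries, tested genes with TGGTCAA or GGTCAAA in an annotated 3' UTR, words taken from an earlier reading of the same data, had a median log2 fold change of -0.04, against 0.00 for the others. Because the words came from these data, this difference is no independent test of them. They make up 13.9% of 13161 tested genes with such a UTR, and 3 of the 36 members carry them: GOT1 fell, VLDLR rose and SLC1A4 was not called. Of the 33 members without the words, 24 fell, 4 rose and 5 were not called. Whether the words bear on the changes of the members was not tested. The authors' deposited table gives all 36 members the same sign as here and lists 5 of them higher and 24 lower at an adjusted p under 0.05, from the same libraries.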

How the data were processed

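RNA was measured by RNA-seq in 3 siTCF19 and 3 siNC libraries. The authors deposited read counts and FPKM per gene and library, per the file headers, and beside these a mean normalized signal for each group. The log2 fold change and the p-value, raw and adjusted, in the deposited table are the authors' own. Per the submitters' processing notes, HISAT2 2.0.5, featureCounts 1.5.0-p3 and hg38 were used; no source used here gives the strand and multi-mapping settings. From the counts as deposited, genes were kept by filterByExpr, scaled by TMM and tested with edgeR 4.0.16 (quasi-likelihood, group only, R 4.3.3), with Benjamini-Hochberg adjustment over all 17299 tested genes, which held at least 99.7% of each library's counts. Of the steps, only the edgeR and limma-voom fits were tested on simulated data, in which far fewer genes changed than were called here. All pairs of libraries differed by more than counting noise (chi-square per degree of freedom at least 2.28). A floor of 3 counts equals 0.190 to 0.206 CPM, and intervals cover the errors named only. Every member was named, and in each further list up to 3 called genes per direction by lowest p, of which 1 is not reported here; 1 listed name, SAMTOR, was not matched. The members and lists were chosen with earlier results of these data known. Alternatives were other scalings and filters, DESeq2 1.42.0, limma 3.58.1 (voom, and trend on log2(FPKM + 1)), a replicate block, a stricter threshold and each library left out.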

Additional observations from a re-analysis of the deposited data

How the results depend on the processing

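Of 360 member values under 10 other settings (scalings, filters, tools, replicate block, adjusted p under 0.01), 356 kept their direction and their side of the threshold, as did 213 of 216 with 1 library left out. The exceptions were SHMT1, SLC1A4 and CHAC1, as given above, CHAC1 at an adjusted p under 0.01 (0.0116), and SESN2, uncalled throughout, whose log2 fold change ran from -0.0084 (without siNC replicate 2, and -0.0083 without siNC replicate 1) to 0.13 (without siNC replicate 3). The number of members that fell was 24 to 25 and that rose 5 to 7 over all settings. With the replicate block, 5 members rose and 25 fell, and 3433 genes were higher and 3441 lower. Same-numbered libraries did not visibly deviate together (correlations -0.024 to 0.021, against -0.029 to 0.020 for other numbers). No pairing by number was thus seen, which does not show that the samples were unpaired. Higher genes were 61.4% of calls with library-size-only scaling, against 49.9%. Depth limits ASNS, CTH, NUPR1 and CHAC1, which had 29 to 141 counts per library. The cause of each lost call was not tested.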
